A study of Mus musculus with 22 samples.

Results

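Replacement histone variants are histones made from genes outside the large histone clusters and placed into chromatin independently of DNA replication. The 9 genes described here were chosen by name: H2afy and H2afy2 (macroH2A1 and macroH2A2), H2afz and H2afv (the H2A.Z pair), H2afx (H2A.X), H2afj (H2A.J), H3f3a and H3f3b (the H3.3 pair) and H1f0 (linker histone H1.0). All 9 were found among the 22330 genes of the expression table, and all 9 passed the minimum level in every test below. The RNA came from mouse embryonic stem cells grown with serum, LIF, the MEK inhibitor PD0325901 and the GSK3 inhibitor CHIR99021. There were 2 libraries each of NF45 KO cells, which lack the RNA-binding cofactor encoded by Ilf2, and of NF45 WT cells, made with a stranded poly(A) kit. The deposited tables head the NF45 WT columns "Rev", a term that the sources used here do not explain, so NF45 WT is the samples' label. A second set had 3 experiments each in NF90+NF110 KO, NF110 KO and NF90/NF110 WT cells; NF90 and NF110 are double-stranded RNA-binding partners of NF45. Each experiment gave RNA immunoprecipitated with an antibody to NF90/NF110 (IP) and the paired input RNA, made with a stranded ribosomal RNA depletion kit. The sources used here do not say how the alleles were made or whether a genotype is 1 clone or several.

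MacroH2A proteins carry a large macro domain behind their H2A fold and are known from the inactive X chromosome and from repressed developmental genes; in reprogramming they act as a barrier to the return to pluripotency. H2A.Z sits beside promoters and is exchanged into nucleosomes by the SRCAP and p400 complexes. H2A.X is phosphorylated around DNA breaks, and its RNA is known to occur both with a poly(A) tail and with a histone stem-loop end. H3.3, encoded as one protein by a pair of genes, is deposited by HIRA and by ATRX with DAXX. H1.0 accumulates in differentiated cells.

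The libraries held 49.1 to 68.8 M gene-assigned reads in the NF45 set, 14.1 to 19.0 M in IPs and 9.5 to 11.9 M in inputs. Stem cell identity was checked with 10 markers, and 10 of 10 reached 1 FPKM (fragments per kilobase of transcript per M fragments) in every group. In NF45 KO 3 of them were called higher and 3 lower by limma, with Tdgf1 at 0.59, Klf4 at -0.65, Zfp42 at -0.40 and Nanog at -0.33. Of 10 fibroblast and feeder cell markers 3 reached 1 FPKM in both NF45 KO libraries, and 1 did in both NF45 WT libraries. The list summed to 279 to 327 FPKM in NF45 KO and 189 to 205 FPKM in NF45 WT, with 1 marker at 0 throughout in either group, and of 3 tested Thy1 (0.66) and Fn1 (0.61) rose. What part either marker list has in the results was not tested. Ilf2 stood at 3.92 and 3.79 FPKM in NF45 KO, against 264 and 308 FPKM in NF45 WT. For the NF90+NF110 KO and NF110 KO libraries the directions rest on the labels. Chromosome 6 genes had median log2 deviations of -0.25 and -0.24 in the NF45 KO libraries and 0.27 and 0.24 in the NF45 WT libraries. This touches H2afj, a gene of that chromosome. The marker values above were not centred per chromosome, so any marker on chromosome 6 shares that difference. On chromosome 13, which holds H2afy, NF45 WT library 2 stood apart at 0.36, against -0.13 and -0.10 in NF45 KO and -0.11 in NF45 WT library 1.

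The promoters of the macroH2A pair and of H2afv are shown because these 3 genes moved most among the members in NF45 KO, H2afy and H2afy2 downward and H2afv upward. Each is the RefSeq window from 250 bases before to 50 after the start site listed for the gene on GRCm38.p6, read on the gene's strand, with CCAAT and its reverse complement ATTGG in capitals. The windows are chr13:56135501-56135800 for H2afy, chr10:61783815-61784114 for H2afy2 and chr11:6444394-6444693 for H2afv, all on the minus strand.
H2afy: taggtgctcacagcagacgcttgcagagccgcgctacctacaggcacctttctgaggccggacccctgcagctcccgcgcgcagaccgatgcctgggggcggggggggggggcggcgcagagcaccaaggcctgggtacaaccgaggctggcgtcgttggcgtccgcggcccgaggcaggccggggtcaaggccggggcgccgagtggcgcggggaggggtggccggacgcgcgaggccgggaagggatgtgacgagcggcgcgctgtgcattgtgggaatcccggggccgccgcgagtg
H2afy2: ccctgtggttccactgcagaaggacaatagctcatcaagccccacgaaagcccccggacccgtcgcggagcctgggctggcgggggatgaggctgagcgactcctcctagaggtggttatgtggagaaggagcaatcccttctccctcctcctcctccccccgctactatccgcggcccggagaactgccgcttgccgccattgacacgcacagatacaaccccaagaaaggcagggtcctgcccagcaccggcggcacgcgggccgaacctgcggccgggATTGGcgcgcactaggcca
H2afv: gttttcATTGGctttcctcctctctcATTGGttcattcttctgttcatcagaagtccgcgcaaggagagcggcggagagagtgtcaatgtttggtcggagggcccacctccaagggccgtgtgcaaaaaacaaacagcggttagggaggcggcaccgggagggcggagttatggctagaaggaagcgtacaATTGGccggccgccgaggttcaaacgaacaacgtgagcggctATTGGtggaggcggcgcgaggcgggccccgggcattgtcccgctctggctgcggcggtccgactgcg
CCAAT on either strand, the box bound by NF-Y, had 0 matches for H2afy, 1 for H2afy2 and 4 for H2afv. Of the 8 members with an entry, 6 held it, against 37.4% of 32851 promoters of the same length; H1f0 also had 0, H2afz and H2afj had 3 each, H3f3b had 4 and H3f3a had 1. GGGCGG on either strand was in 6 of 8, against 35.7% of all promoters. TATAAA on either strand was in 1 of 8, that of H3f3b, against 13.6%. The windows held 17 to 39 CpG dinucleotides, with 37 for H2afy and 39 for H3f3a, against a median of 7 over all promoters. A match describes letters in this window only. The windows of H2afy2 and H3f3b lie inside the gene spans given below, so any start nearer the outer end of these genes is not covered.

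Loss of NF45 went with a deep fall of macroH2A1 RNA and with smaller shifts of other members. H2afy (chromosome 13, 56073622 to 56135626 on GRCm38.p6) had 8.38 and 8.999 FPKM in NF45 KO, against 129 and 182 FPKM in NF45 WT, so the groups lay far apart. Its log2 fold change on the FPKM + 1 scale was -3.99 (SE 0.18, limma adjusted p = 0.00566), and the NF45 KO mean was 0.0559 times the NF45 WT mean. The level rested on 926 to 945 reads per NF45 KO library and 11251 to 21798 reads per NF45 WT library. Only 1 of the 11481 genes tested, the targeted Ilf2, had a lower fold change. With every library centred on the median of each chromosome, H2afy was still at -3.75 (adjusted p = 5.6e-05). In bulk RNA, fewer cells that express a gene and less RNA per cell cannot be told apart. The counts do not separate the splice forms of macroH2A1.

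H2afy2, the macroH2A paralog (chromosome 10, 61738640 to 61784604), fell as well, but slightly. It had 33.5 and 30.6 FPKM in NF45 KO, against 45.3 and 47.6 FPKM in NF45 WT, without overlap (log2 fold change -0.52, SE 0.07, limma adjusted p = 0.0123). The summed macroH2A level was thus 41.9 and 39.6 FPKM in NF45 KO, against 174 and 230 FPKM in NF45 WT. H2afy made up 19.99% and 22.7% of that sum in NF45 KO and 74.0% and 79.3% in NF45 WT, so that H2afy2 was the larger source of macroH2A RNA in NF45 KO and H2afy in NF45 WT. No test was run on the sums or shares.

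Of the H2A.Z pair H2afv passed the test and H2afz did not. H2afv (chromosome 11, 6427226 to 6444511) had 90.9 and 88.9 FPKM in NF45 KO, against 62.0 and 65.0 FPKM in NF45 WT, and rose (log2 fold change 0.50, SE 0.06, limma adjusted p = 0.00929). H2afz (chromosome 3, 137864487 to 137866922) had 15.4 and 13.8 FPKM in NF45 KO and 18.002 and 17.5 FPKM in NF45 WT; the libraries did not overlap, but the test did not pass (-0.27, SE 0.08, adjusted p = 0.0668). The pair summed to 106 and 103 FPKM in NF45 KO, against 80.0 and 82.5 FPKM in NF45 WT, with H2afz at 13.5% to 14.5% of the sum in NF45 KO and 21.2% to 22.5% in NF45 WT.

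Of the H3.3 pair only H3f3b passed. H3f3b (chromosome 11, 116021961 to 116026039), which gave most of the H3.3 RNA of these libraries, had 97.5 and 101 FPKM in NF45 KO, against 127 and 139 FPKM in NF45 WT, and fell (log2 fold change -0.41, SE 0.07, limma adjusted p = 0.0186). H3f3a (chromosome 1, 180802560 to 180813605) had 7.65 and 7.01 FPKM in NF45 KO and 6.76 and 7.77 FPKM in NF45 WT, where the groups overlapped (0.01, SE 0.10, adjusted p = 0.937). H3f3a has 2 named pseudogenes in the annotation, and H3.3 and H2A.Z genes have processed copies in the genome, so reads could be split between copies and levels of H3f3a, H3f3b and H2afz are uncertain to that extent.

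The linker histone gene H1f0 (chromosome 15, 79028212 to 79030504) rose, with 40.0 and 43.6 FPKM in NF45 KO against 34.9 and 33.2 FPKM in NF45 WT (log2 fold change 0.29, SE 0.07, limma adjusted p = 0.0451). The call was lost with no filter on low values (adjusted p = 0.0704), without the variance trend (adjusted p = 0.0607) and with the replicate number as a term (adjusted p = 0.0662). H2afj (chromosome 6, 136808248 to 136810074), whose protein is known to accumulate in senescent human fibroblasts, was low throughout this set, with 5.03 and 5.76 FPKM in NF45 KO against 7.09 and 8.28 FPKM in NF45 WT. It passed narrowly (-0.44, SE 0.11, adjusted p = 0.0496), but centred per chromosome its value was 0.06 (adjusted p = 0.736), so neither the direction nor the call was kept. The call was also lost with no filter (adjusted p = 0.0771), under quantile scaling (adjusted p = 0.0712) and median centring (adjusted p = 0.0677), and by edgeR (adjusted p = 0.0743) and DESeq2 (adjusted p = 0.0573). H2afx (chromosome 9, 44334715 to 44336077), the member with the highest FPKM in NF45 KO, had 163 and 171 FPKM there, against 115 and 154 FPKM in NF45 WT, without overlap but with a wide WT spread (0.33, SE 0.15, adjusted p = 0.171).

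In all, limma called 6 of the 9 members, 2 higher (H2afv and H1f0) and 4 lower (H2afy, H2afy2, H2afj and H3f3b), where 27.6% of all tested genes were called, 11.7% higher and 16.0% lower; with libraries centred on their medians 1663 genes were higher and 1455 lower, and under quantile scaling 1645 and 1606, against 1338 and 1833 as tested. Libraries of 8 of 9 members did not overlap, which was so for 72.0% of all genes. The median log2 fold change was -0.27 over the members and -0.03 over all genes, and the median size was 0.41 and 0.22. Without NF45 KO library 1 or 2, which leaves a lone KO library assumed to vary like the WT ones, limma called 0 of all genes, so 0 members (6 and 5 at an unadjusted p under 0.05), and H2afy stood at -3.95 (adjusted p = 0.142) and -4.04 (adjusted p = 0.13). Without NF45 WT library 1 or 2 it called 7 and 8 members, and 6035 and 5223 of all genes against 3171 as tested. The authors' deposited table likewise passes 2 members as higher and 4 as lower, with H2afy at -3.83.

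**Figure D1:**
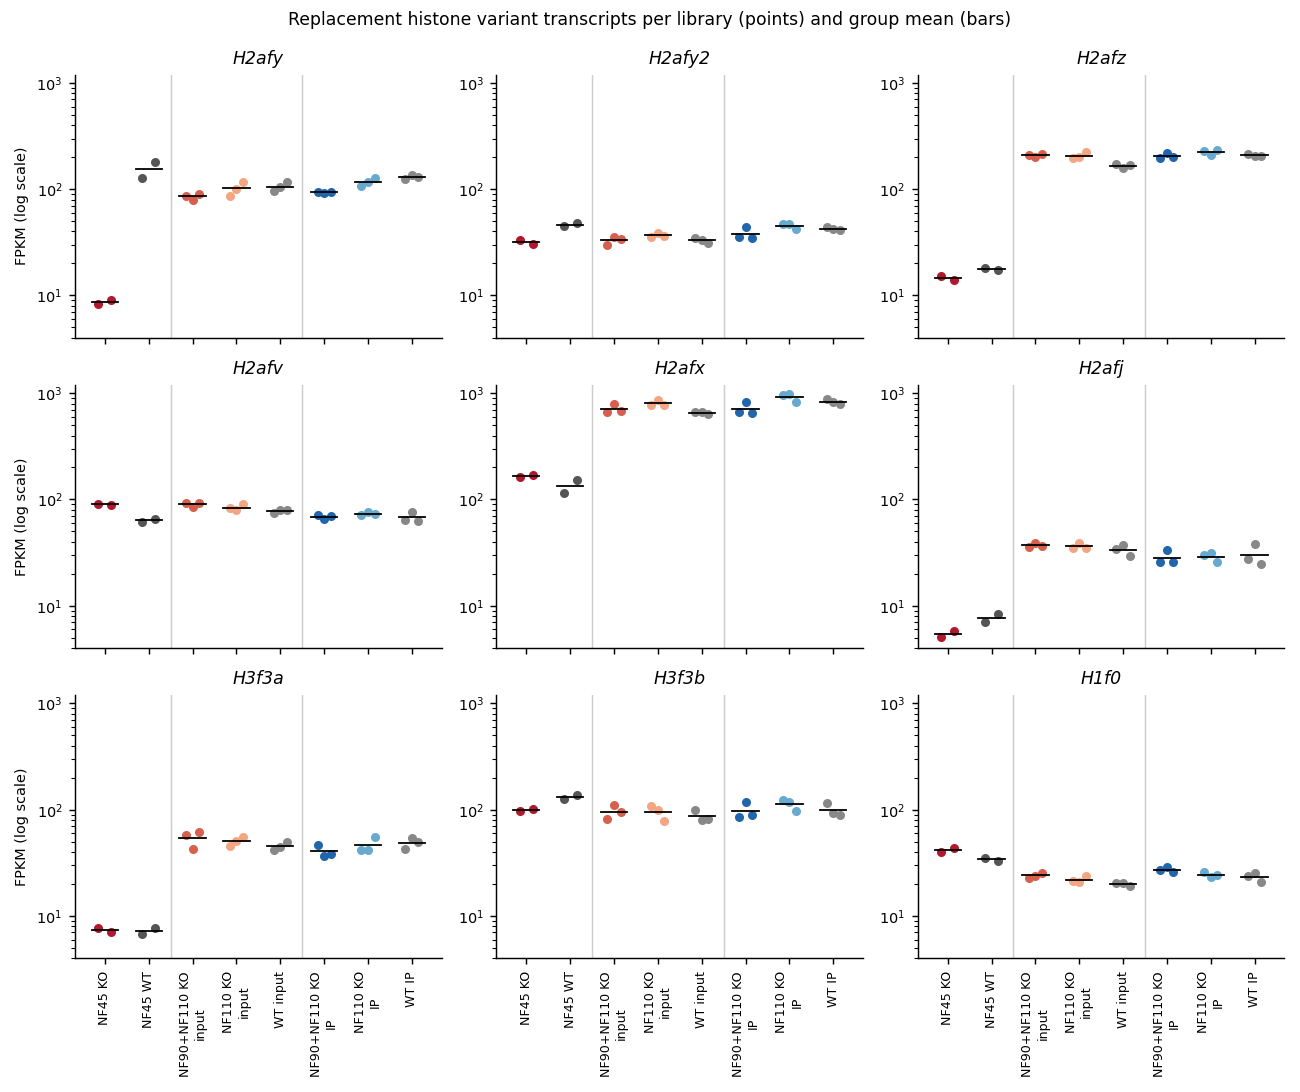
FPKM (log axis) of each of the 9 genes in every library (points) with the group mean (bars), for the NF45 set, the inputs and the IPs, divided by grey lines. H2afy lies between 8.38 and 8.999 FPKM in NF45 KO and at 129 and 182 FPKM in NF45 WT, while in the inputs and IPs of every genotype it stays between 79.4 and 136 FPKM.

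Genes that handle these variants were looked at through lists of known factors. Their counts are to be read against the 27.6% of all genes called, 11.7% higher and 16.0% lower. Values of list genes were not centred per chromosome, so those of any on chromosome 6 share its lower level in NF45 KO. Of 9 factors that deposit H3.3, 2 fell and 0 rose in NF45 KO, namely Ubn2, a subunit of the HIRA complex (-0.74, limma adjusted p = 0.0195), and the chaperone Asf1b (-0.60, adjusted p = 0.0207). Of 12 H2A.Z exchange factors 2 rose and 1 fell: the ATPase genes Ruvbl2 (0.39) and Ruvbl1 (-0.50), whose proteins work as partners, went opposite ways, and Vps72, the H2A.Z-binding subunit, was at 0.26. Among 12 genes of the DNA break response around H2A.X, Rad50 rose (0.48) and its complex partners Nbn (-0.60) and Mre11a (-0.24) fell. Of 12 factors linked to macroH2A 3 fell and 0 rose, namely the macrodomain hydrolase gene Macrod1 (-0.51, adjusted p = 0.0497), the remodeller gene Hells (-0.25) and the helicase gene Ddx17 (-0.23). Of 10 general histone chaperones limma called 0, with 3 at an unadjusted p under 0.05. Of 13 other histone genes, variants and core histone genes together, 12 were in the table and 2 could be tested. Of these the centromeric H3 gene Cenpa fell (-0.50, limma adjusted p = 0.00859). The list medians ran from -0.29, over the 2 other histone genes, to 0.07, over the H2A.Z exchange factors, beside -0.03 over all genes.

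The profile of H2afy was set against 12646 genes over the 4 NF45 libraries and 9 inputs by Euclidean distance in log2(FPKM + 1), each set centred on its own mean. The nearest were Pnma5 (distance 1.36), Herc4 (1.86), Fam111a (1.87), Ilf2 (1.97) and B3gnt3 (2.22), where a flat profile lies at 4.05. Their NF45 KO changes were -3.21, -2.28, -2.46, -5.88 and -1.92. Pnma5 had 1.04 and 1.17 FPKM in NF45 KO, against 20.5 and 16.6 FPKM in NF45 WT. None of the other members came near: H2afy2 was at 3.54, at rank 887 of 12646, and H2afv was farthest at 4.55. H2afy varied mainly between NF45 KO and NF45 WT, so the distance mostly reads that contrast; it is a description only.

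In the inputs of cells labelled NF90+NF110 KO, H2afy showed no fall of that size. H2afy had 87.1, 79.4 and 90.4 FPKM in NF90+NF110 KO inputs, against 95.9, 104 and 116 FPKM in WT inputs, a set of values without overlap. The log2 fold change was -0.30 (SE 0.12), which did not pass (limma adjusted p = 0.298). H2afz lay higher, with 210, 200.1 and 213 FPKM in NF90+NF110 KO inputs against 173, 158 and 168 FPKM in WT inputs (0.32, SE 0.08, adjusted p = 0.142). H2afv (0.20, adjusted p = 0.273) and H1f0 (0.26, adjusted p = 0.182) were also above WT in every library. The other 5 members overlapped, with log2 fold changes between 0.01 for H2afy2 and 0.23 for H3f3a. Libraries of 4 of 9 members did not overlap, where 21.5% of all genes did not.

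Limma called 0 of 9 members in NF90+NF110 KO inputs against WT, where 0.209% of 12444 genes were called; 4 members had an unadjusted p under 0.05, edgeR called 0 and DESeq2 called 1, H2afz (0.34, adjusted p = 0.00465). Of the 12444 genes DESeq2 called 330. The authors' deposited table also passes H2afz alone (0.31, adjusted p = 0.00181). The level of chromosome 6 genes differed between the inputs of each genotype: its median log2 deviation was -0.21, 0.24 and -0.22 in NF90+NF110 KO and 0.26, -0.15 and -0.21 in WT inputs. With that level as a term in the fit, limma called 1016 of all genes, against 26 as tested, among them 3 members, H2afy lower (-0.31, adjusted p = 0.0266) and H2afz (0.32, adjusted p = 0.0173) and H2afv (0.20, adjusted p = 0.0457) higher.

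In NF110 KO inputs H2afy was at 86.4, 101 and 117 FPKM, overlapping the 95.9 to 116 FPKM of WT inputs (log2 fold change -0.06, SE 0.12, limma adjusted p = 0.834). H2afz was again above WT in every library, with 197, 200.4 and 224 FPKM in NF110 KO inputs (0.31, SE 0.08, adjusted p = 0.168). H2afx had 774, 869 and 779 FPKM in NF110 KO inputs, against 669, 664 and 638 FPKM in WT inputs (0.29, SE 0.09, adjusted p = 0.194). H2afy2 (0.15) and H1f0 (0.13) also did not overlap with WT, which makes 4 of 9 members, all higher, where 22.6% of genes did not overlap. Limma called 0 members, against 0.00804% of genes; 2 had an unadjusted p under 0.05, edgeR called 0 and DESeq2 1, H2afz (0.32, adjusted p = 0.0119). Of all 12444 genes DESeq2 called 303. The authors' deposited table passes H2afz as well (0.30, adjusted p = 0.00378). With the chromosome 6 term, which was at 0.25, 0.22 and -0.20 in NF110 KO inputs, H2afz (0.33, adjusted p = 0.0295) and H2afx (0.26, adjusted p = 0.046) passed, along with a rise over all genes to 719 calls, against 1 as tested. Both knockouts were compared with the same WT inputs, so their like values for H2afz are not independent.

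NF90+NF110 KO and NF110 KO inputs overlapped for 9 of 9 members, where 14.7% of genes did not overlap. The log2 fold changes ran from -0.24 for H2afy to 0.13 for H1f0. Limma called 0 members, against 0.0482% of genes; edgeR and DESeq2 also called 0, and the unadjusted p was under 0.05 for 0 members. Of the lists of related factors, Macrod1 was lower in NF90+NF110 KO than in NF110 KO (-0.93, limma adjusted p = 0.0201). In a fit of only the libraries compared, and without NF110 KO input 2, 0 of all genes were called by limma (1083 and 649 at an unadjusted p under 0.05), so this call was lost there. Against WT inputs limma called 0 genes of any of these lists in either knockout; unadjusted p-values under 0.05 were seen for 1840 of all 12444 genes in NF90+NF110 KO inputs and for 2043 in NF110 KO inputs. In the lists these were, in NF90+NF110 KO, 2 of 12 macroH2A-linked factors, 4 of 12 DNA break response genes and 2 of 12 H2A.Z exchange factors. Also among them were 1 of 9 H3.3 deposition factors, 0 of 10 chaperones and 1 of 6 other histone genes. In NF110 KO they were 9, 6, 1, 2, 1 and 3 of the same lists. Such misses do not show that levels were equal.

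**Figure D2:**
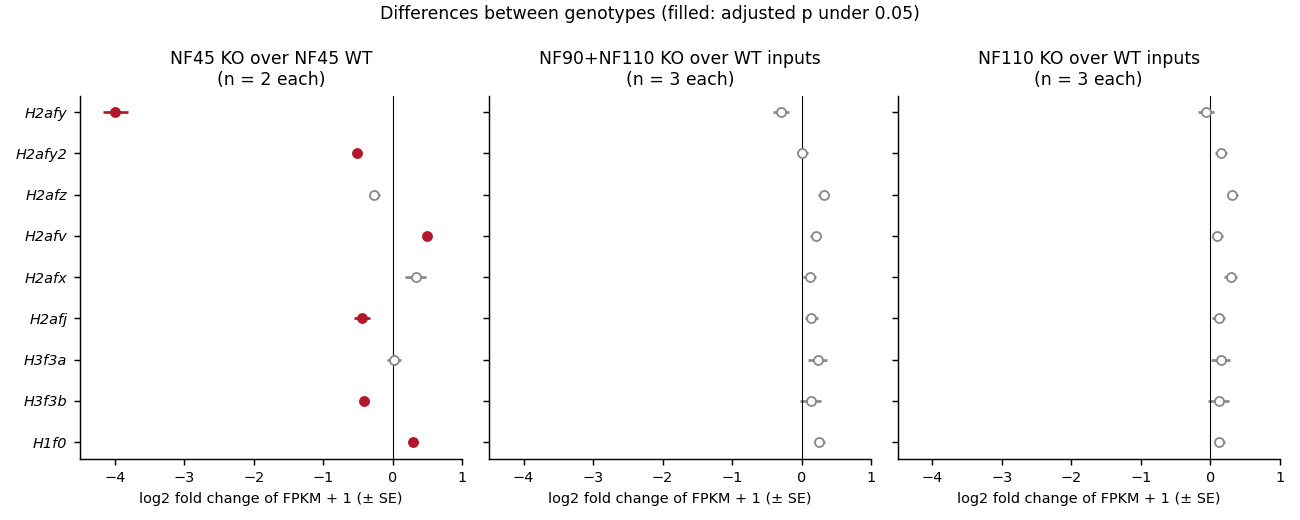
Log2 fold change of FPKM + 1 with its SE for the 9 genes in NF45 KO over NF45 WT (n = 2 each), NF90+NF110 KO over WT inputs and NF110 KO over WT inputs (n = 3 each), filled where the adjusted p was under 0.05. H2afy stands at -3.99 in NF45 KO, -0.30 in NF90+NF110 KO inputs and -0.06 in NF110 KO inputs, and the filled points are in the NF45 comparison.

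Whether the NF45 KO effect differed from the NF90+NF110 KO effect was tested directly, each effect within its own kind of library. H2afy differed by -3.70 (SE 0.22, limma adjusted p = 6.7e-06), with a single gene of 12647, again Ilf2, further below. H2afz differed by -0.59 (SE 0.11, adjusted p = 0.0149), being at -0.27 in NF45 KO and 0.32 in NF90+NF110 KO. H2afy2 (-0.53, adjusted p = 0.0303) and H2afj (-0.58, adjusted p = 0.0477) also passed, but H2afy2 was at -0.43 (adjusted p = 0.0807) under quantile scaling and H2afj at -0.23 (adjusted p = 0.645) once centred per chromosome. These 4 of 9 members were all lower, where 3.40% of genes were called lower and 5.25% in either direction. Without single libraries the number called lay between 1 (without NF45 KO library 2) and 4 (without NF45 WT library 1). It was 2 without NF45 WT library 2, NF45 KO library 1, WT input 3, NF90+NF110 KO input 2 or NF90+NF110 KO input 3.

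The order of the members by FPKM changed with NF45 and with the kind of library. In NF45 KO it ran H2afx, H3f3b, H2afv, H1f0, H2afy2, H2afz, H2afy, H3f3a and H2afj, with no overlap between neighbours. In NF45 WT H2afy stood first by mean, overlapping with H2afx, which in turn overlapped with H3f3b. H2afv, H2afy2, H1f0 and H2afz followed, each clear of its neighbours, and H2afj and H3f3a overlapped at the foot. In WT inputs H2afx led with 657 ± 16.6 FPKM (SD, n = 3), before H2afz with 166 ± 7.4 FPKM. H2afy, H3f3b and H2afv came next and overlapped in turn, then H3f3a, the overlapping H2afj and H2afy2, and last H1f0.

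There were 4 members, H2afz, H3f3a, H2afx and H2afj, that were far higher in the WT inputs, made by ribosomal RNA depletion, than in the poly(A) libraries of NF45 WT. H2afz had 173, 158 and 168 FPKM in WT inputs, against 18.002 and 17.5 FPKM in NF45 WT, a ratio of means of 9.38. The ratio was 6.23 for H3f3a, 4.89 for H2afx and 4.36 for H2afj. For the other 5 it lay between 0.587 (H1f0) and 1.23 (H2afv), and over 11015 genes the median was 0.953, with 5th and 95th percentiles of 0.402 and 2.96. For 98.0% or more of those genes the ratio was lower than for each of the 4. Library kit, cell line and culture cannot be told apart here, and no test was run. H2afz gave 66.5% to 71.8% of H2A.Z RNA in inputs of all genotypes and 13.5% to 22.5% in the NF45 set. H3f3a gave 27.8% to 41.6% of H3.3 RNA in inputs and 5.05% to 7.28% in the NF45 set.

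**Figure D3:**
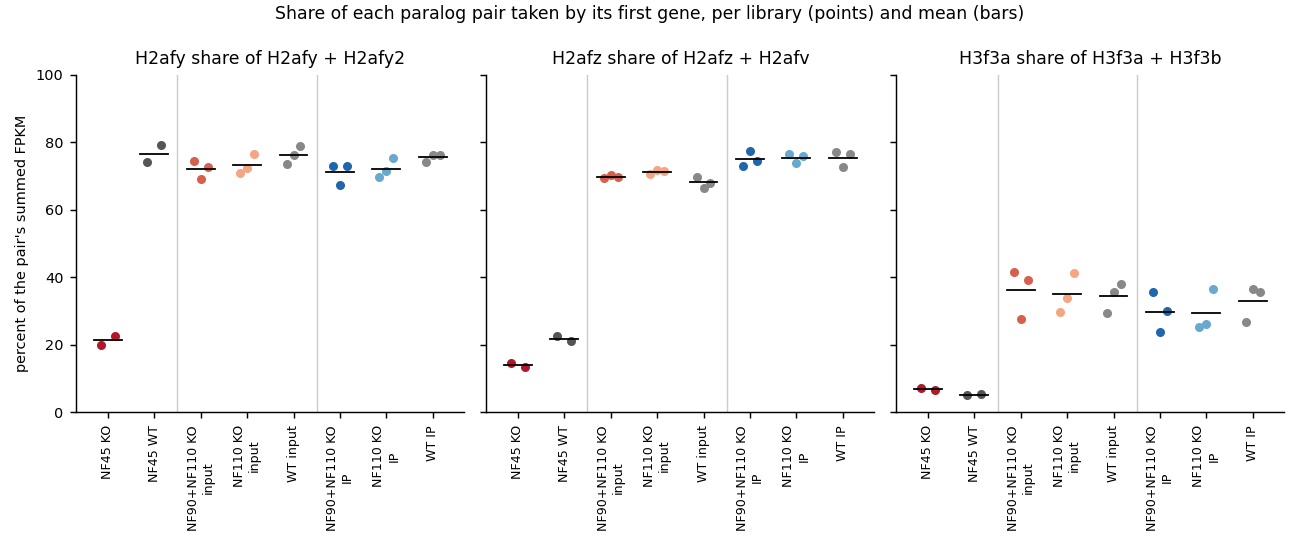
Percent of the summed FPKM of each pair given by H2afy, H2afz and H3f3a, per library (points) with the group mean (bars). H2afy gives 19.99% to 22.7% of macroH2A RNA in NF45 KO and 74.0% to 79.3% in NF45 WT, and H2afz gives 13.5% to 22.5% of H2A.Z RNA in the NF45 set, against 66.5% or more in the other libraries.

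Immunoprecipitation with the NF90/NF110 antibody asks which RNAs come down with these proteins; NF90+NF110 KO cells, by their label, lack both and show what the antibody and beads bring down without them. MacroH2A RNAs were modestly higher in IPs than in their inputs in every experiment. In NF90+NF110 KO H2afy had 94.6, 91.4 and 94.9 FPKM in IPs, against 87.1, 79.4 and 90.4 FPKM in inputs (log2 fold change 0.13, limma adjusted p = 0.0621). It was at 108, 117 and 129 FPKM in NF110 KO IPs, against 86.4, 101 and 117 FPKM in the inputs (0.22, adjusted p = 0.00547). In WT it had 126, 136 and 131 FPKM in IPs, against 95.9, 104 and 116 FPKM in inputs (0.31, SE 0.05, adjusted p = 0.000319). Over the 9 experiments log2(IP/input) of H2afy lay between 0.07 and 0.39, and that of H2afy2 between 0.04 and 0.41. H2afy2 passed in all 3 genotypes, with 0.19 in NF90+NF110 KO, 0.30 in NF110 KO and 0.36 in WT, but in NF90+NF110 KO the call was lost without experiment 1 (adjusted p = 0.073), without experiment 2 (adjusted p = 0.111) and with IPs and inputs unpaired (adjusted p = 0.151).

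Within NF90+NF110 KO, IPs were higher than inputs for 2 of 9 members (H2afy2 at 0.19 and H1f0 at 0.17) and lower for 3 (H3f3a at -0.39, H2afv at -0.38 and H2afj at -0.38), where 44.6% of all genes were called, 23.4% higher and 21.1% lower. Within NF110 KO 4 were higher (H2afy2, H3f3b at 0.26, H2afy, H2afx at 0.19) and 2 lower (H2afj at -0.32, H2afv at -0.18), where 38.1% of genes were called, 21.1% higher and 17.0% lower. Within WT 6 were higher (H2afy2 at 0.36, H2afx at 0.34, H2afz at 0.32, H2afy at 0.31, H1f0 at 0.22 and H3f3b at 0.19) and 1 lower (H2afv at -0.21), where 52.5% of all genes were called, 28.9% higher and 23.6% lower. The H1f0 call in NF90+NF110 KO was kept in 3 of 11 settings that left no experiment out, with an adjusted p of 0.132 by DESeq2 and 0.113 under quantile scaling. In WT the H3f3b call was lost under quantile scaling (0.06, adjusted p = 0.302) and centred per chromosome (adjusted p = 0.0563). The H1f0 call in WT was lost centred per chromosome (adjusted p = 0.0821), by DESeq2 (adjusted p = 0.054) and without WT experiment 2 (adjusted p = 0.0983), and that of H2afv without WT experiment 3 (adjusted p = 0.0973). With IPs and inputs unpaired limma called 1 member in NF90+NF110 KO, 1 in NF110 KO cells and 4 in WT. The calls over all 12693 genes were then 2433, 1865 and 3491, against 5655, 4832 and 6659 as tested. Without NF110 KO experiment 1 the count in NF110 KO was 3, and without NF90+NF110 KO experiment 1 or 2 that in NF90+NF110 KO was 3. The authors' deposited table passes fewer members, with 4 higher and 0 lower in WT. It passes 1 and 0 in NF110 KO, and 0 and 1 in NF90+NF110 KO. H2afy in NF110 KO (adjusted p = 0.217) and H2afy2 in NF90+NF110 KO (adjusted p = 0.102) do not pass there.

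Of the H2A.Z pair, H2afv was below its input in 9 of 9 experiments. Its log2(IP/input) was -0.37, -0.38 and -0.41 in NF90+NF110 KO cells, -0.21, -0.06 and -0.29 in NF110 KO cells and -0.23, -0.06 and -0.35 in WT cells. H2afz was at -0.11, 0.14 and -0.07 in NF90+NF110 KO cells, at 0.23, 0.08 and 0.05 in NF110 KO cells and at 0.33, 0.36 and 0.27 in WT cells, so the WT values lay above all the others.

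The enrichment in WT was tested against that in NF90+NF110 KO, as WT minus NF90+NF110 KO, so that a positive value means more enrichment in WT. Of 9 members 3 passed, all positive, where 4.61% of genes were called in that direction and 5.82% in either. H2afx had log2(IP/input) of 0.00, 0.07 and -0.08 in NF90+NF110 KO, against 0.41, 0.31 and 0.32 in WT (difference 0.35, SE 0.07, limma adjusted p = 0.0179). H2afz, given above, differed by 0.33 (SE 0.07, adjusted p = 0.0267). H3f3a had -0.31, -0.21 and -0.68 in NF90+NF110 KO, against 0.02, 0.29 and -0.02 in WT (0.49, SE 0.12, adjusted p = 0.0369), so its difference came with values near 0 in WT and negative ones in NF90+NF110 KO. H2afy, with 0.18 (SE 0.07, limma adjusted p = 0.163), did not pass. The median difference was 0.18 over the members and 0.006 over all genes. The smallest, H1f0 at 0.05, changed sign without WT experiment 2 or NF90+NF110 KO experiment 3.

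These 3 calls were lost under several settings. Limma called 0 members under quantile scaling (2 at an unadjusted p under 0.05), where H2afx was at 0.08 and the called genes split into 75 higher and 60 lower, against 585 and 154 as tested. Under that scaling H2afx in NF90+NF110 KO was higher in IPs than in inputs (0.24, adjusted p = 0.000306), where it was at -0.01 as tested. Without the variance trend, and with IPs and inputs unpaired, limma called 0 of all 12693 genes (2830 and 965 at an unadjusted p under 0.05) and so 0 members (4 and 3), while edgeR and DESeq2 on recovered reads called 3 each. Leaving out WT experiment 1 or 2, or NF90+NF110 KO experiment 1 or 3, gave 0 members, with 3 or 4 at an unadjusted p under 0.05, and 13 to 63 of all genes against 739 as tested.

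NF110 KO enrichment minus that of NF90+NF110 KO passed for H3f3b alone (0.23, SE 0.06, limma adjusted p = 0.0414), with log2(IP/input) of 0.21, 0.27 and 0.30 in NF110 KO against 0.06, 0.10 and -0.09 in NF90+NF110 KO. This is 1 of 9 members, where 6.00% of genes were called higher and 9.91% in either direction, split 762 higher and 496 lower, or 464 and 583 under quantile scaling. The call was lost, at 0 members, without NF110 KO experiment 2 or 3 or NF90+NF110 KO experiment 1 or 3, where limma called 6, 396, 7 and 1159 of all genes against 1258 as tested. WT minus NF110 KO gave 0 member calls by limma, edgeR and DESeq2, where 13.3% of genes were called by limma. There 2 members, H2afx (0.16) and H2afz (0.20), had an unadjusted p under 0.05, and without NF110 KO experiment 1 limma called these 2. Leaving out 1 experiment gave 0 to 2416 calls over all genes, against 1694 as tested.

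Counts in the related lists are to be read against the shares of all genes called. These were 23.4% higher and 21.1% lower in NF90+NF110 KO IPs, and 28.9% and 23.6% in WT IPs. In NF90+NF110 KO, 4 of 12 H2A.Z exchange factors were higher and 2 lower in IPs than in inputs, led by the p400 gene Ep400 (1.27) and Srcap (0.82). In WT, IPs were higher for 9 and lower for 2 of them, and Ep400 (1.04) and Srcap (0.82) led there too. Of 10 general chaperones 4 were higher and 1 lower in WT IPs, the lower one being the H3-H4 chaperone gene Nasp (-1.11 in NF90+NF110 KO and -0.98 in WT). Of 12 DNA break response genes 3 were higher and 5 lower in WT IPs, with Trp53bp1 at -1.20. The H3.3 deposition list had 4 higher and 3 lower, with Daxx at 0.55, and the macroH2A-linked list 2 higher and 4 lower, with Parp1 at 0.70 and Mbnl1 at -0.68. WT minus NF90+NF110 KO was called higher for 4 of 12 H2A.Z exchange factors, Znhit1 (0.38), Dmap1 (0.37), Ruvbl2 (0.37) and Vps72 (0.35), and lower for 0, where 4.61% of all genes were called higher. Of 6 tested other histone genes 3 were higher, Hist3h2ba (0.78), Hist4h4 (0.61) and Hist3h2a (0.42). That list holds core histone genes, such as these 3, beside variants such as Cenpa. These list calls were lost too without the variance trend and with IPs and inputs unpaired, where 0 of all genes were called. Limma called 0 genes of the other 4 lists, where 1 H3.3 deposition factor, 2 chaperones, 5 DNA break response genes and 3 macroH2A-linked factors had an unadjusted p under 0.05.

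**Figure D4:**
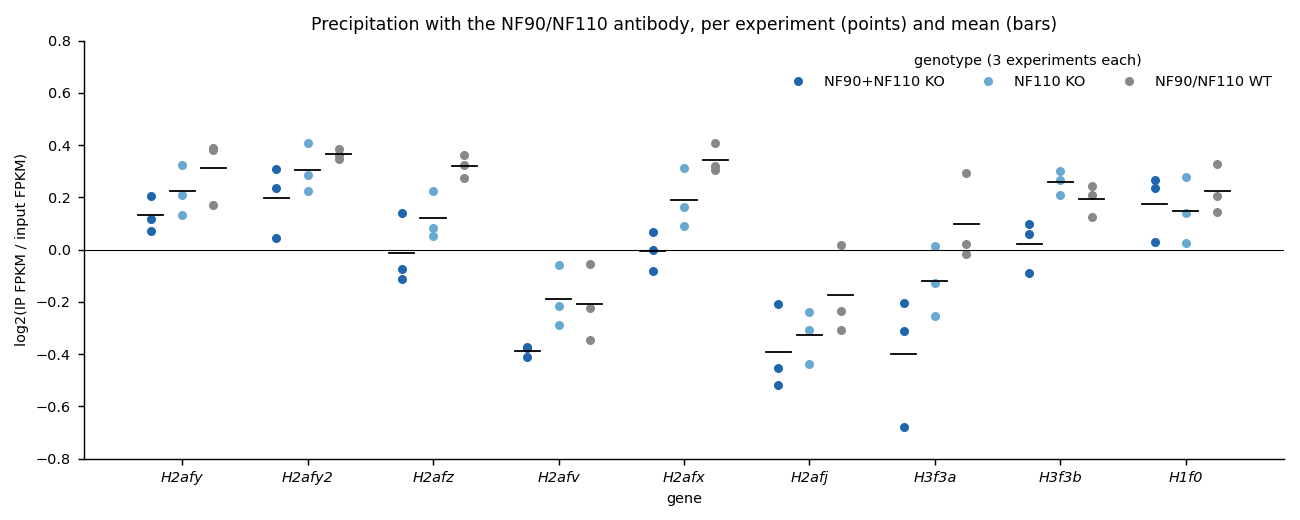
Log2(IP FPKM / input FPKM) of each of the 9 genes per experiment (points) with the mean (bars), for NF90+NF110 KO, NF110 KO and WT. H2afy and H2afy2 are above 0 in all 9 experiments and H2afv is below 0 in all 9, while H2afx and H2afz lie between -0.11 and 0.14 in NF90+NF110 KO (H2afx is higher there under quantile scaling) and between 0.27 and 0.41 in WT.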

How the data were processed

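RNA from 22 libraries of mouse embryonic stem cells in 8 groups was analysed: 4 poly(A) libraries of NF45 KO and NF45 WT, and 9 IP and 9 input libraries of 3 genotypes. Reads were aligned to mm10 with TopHat2 2.0.10, and Cufflinks 2.2.1 with Cuffnorm, HTSeq 0.6.1 and DESeq2 were used, per the submitters' processing notes; no source used here says which tool made which column, or gives the annotation or the strand setting. The authors deposited FPKM per gene and library, and counts divided by size factors (a normalised count, taken here as a signal). The authors' deposited tables also hold log2 fold changes with standard errors, a Wald statistic (a score), p-values and adjusted p-values. Dividing the deposited normalised counts by each library's smallest step gave whole reads for 100% of values, within 0.1 of a whole number; these recovered reads gave the depths and served edgeR 4.0.16 and DESeq2 1.42.0 as alternatives.

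The tests used limma 3.58.1 (R 4.3.3) on log2(FPKM + 1), with trend and robust moderation, over genes that reached 1 FPKM in 2 or more NF45 libraries or in 3 or more of the other set. Fold changes on that scale understate changes of low genes. P-values were adjusted by Benjamini-Hochberg over all genes tested, called at 0.05, and are two-sided. NF45 KO and NF45 WT were fitted on their own, and inputs together; IPs and inputs were fitted with a term per experiment, because the study's design pairs each IP with its input. Deviations from the group means of an IP and its own input correlated at 0.548 to 0.835 over 9 pairs. No source says whether replicates are separate cultures, so p-values measure the spread between libraries, which may be technical.

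The members and the lists of related factors were chosen with earlier results of these data known. Named beside the members were Ilf2, up to 4 called genes per list by size of change, and the 5 genes closest to H2afy; the level of the gene targeted in the second set is not reported here. Promoters and positions are RefSeq's on GRCm38.p6, matched by symbol, with 8 of 9 promoters found. Alternatives were no filter, a filter at FPKM 5, pseudocounts of 0.1 and 0.5, quantile scaling, median centring, centring per chromosome, no trend or robust moderation, the experiment or replicate number as a term or not, edgeR, DESeq2, the compared inputs alone, the level of chromosome 6 as a term, and leaving out each library or experiment.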

Additional observations from a re-analysis of the deposited data

Results flagged for a closer look

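For 4 members the NF45 KO effect differed from the NF90+NF110 KO effect, tested as a difference between the 2 effects by limma with adjusted p under 0.05: H2afy by -3.70, H2afz by -0.59, H2afj by -0.58 and H2afy2 by -0.53. The NF45 effects came from poly(A) libraries and the NF90+NF110 effects from ribosomal RNA depleted ones, so the deletion and the kind of library cannot be told apart in these differences. The limma call was lost for H2afj centred per chromosome (-0.23, adjusted p = 0.645) and for H2afy2 under quantile scaling (-0.43, adjusted p = 0.0807). H2afz had effects of opposite sign, at -0.27 in NF45 KO and 0.32 in NF90+NF110 KO, neither of which limma called on its own as tested. The NF90+NF110 KO effect did pass by DESeq2 (0.34, adjusted p = 0.00465) and in the authors' deposited table (0.31, adjusted p = 0.00181).

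IP enrichment differed between genotypes for another 4 results. As WT minus NF90+NF110 KO it was 0.35 for H2afx, 0.33 for H2afz and 0.49 for H3f3a. As NF110 KO minus NF90+NF110 KO it was 0.23 for H3f3b.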

How the results depend on the processing

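H2afy in NF45 KO lay between -4.12 and -3.75 and stayed called under every alternative that kept all 4 libraries, and between -4.24 and -3.74 without 1 library, where it lost its call without either NF45 KO library. The counts that follow leave out H2afy in NF45 KO. Most of their values were not called as tested and so had no call to lose. Of 1132 values under the other alternatives 1049 kept direction and call, 53 lost the call, 16 gained it and 14 changed sign. Without a library or experiment it was 438 of 527, 53, 6 and 30. The members called without 1 library or experiment numbered 0 to 8 for NF45 KO, 0 for the 3 input comparisons, 3 to 5 for NF90+NF110 KO IP, 3 to 6 for NF110 KO IP, 6 to 7 for WT IP, 0 to 3 for WT minus NF90+NF110 KO, 0 to 1 for NF110 KO minus NF90+NF110 KO, 0 to 2 for WT minus NF110 KO and 1 to 4 for the difference between the NF45 KO and NF90+NF110 KO effects. The causes were not tested.

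In inputs against WT, DESeq2 called 1 member in each knockout, and the chromosome 6 term gave 3 for NF90+NF110 KO and 2 for NF110 KO. Without the block that pairs IP and input, 1 member was called among NF90+NF110 KO IPs, 1 for NF110 KO and 4 for WT; with the replicate block 5 were called in NF45 KO, 0 in each input comparison and 4 in the difference of effects, although the numbers were not taken to pair the inputs (correlations of -0.477 to 0.656) and 2 pairs cannot show whether they pair the NF45 libraries (0.245). Over all genes, the fit without the pairing block called 2433 in NF90+NF110 KO IPs, 1865 in NF110 KO IPs and 3491 in WT IPs. WT minus NF90+NF110 KO had 1 member called with no filter and 0 under quantile scaling, without the trend and without the block. NF110 KO minus NF90+NF110 KO had 0 under these 4 settings and 2 by edgeR. WT minus NF110 KO had 1 centred per chromosome, H2afz at 0.27.

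Signs changed, among values that were otherwise not called except H2afj in NF45 KO, as follows. Centred per chromosome, H2afj was 0.056 and H3f3a -0.0088 in NF45 KO, H2afy 0.0158 and H2afj -0.0058 in NF110 KO inputs, H2afz -0.0167 in NF90+NF110 KO against NF110 KO inputs, and H2afz 0.0157 and H3f3b -0.0212 in NF90+NF110 KO IPs. With the chromosome 6 term, H2afy was 0.0046 in NF110 KO inputs, and H2afz -0.0145 and H3f3a -0.0162 in NF90+NF110 KO against NF110 KO inputs. Under quantile scaling H2afx was -0.0065 in NF90+NF110 KO inputs and 0.24 (called) in NF90+NF110 KO IPs, and H3f3a -0.0258 in WT IPs. By edgeR H3f3b was -0.0055 in NF90+NF110 KO IPs.

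Without single libraries, H3f3a ran from -0.0758 to 0.1006 in NF45 KO, H2afy2 from -0.043 to 0.0801 in NF90+NF110 KO inputs and H2afy from -0.1702 to 0.0484 in NF110 KO inputs. Between NF90+NF110 KO and NF110 KO inputs H2afz ran from -0.0289 to 0.0656, H3f3b from -0.1188 to 0.1197, H2afj from -0.0069 to 0.0661 and H3f3a from -0.0156 to 0.244. In NF90+NF110 KO IPs H2afz ran from -0.0918 to 0.0341, H3f3b from -0.0159 to 0.078 and H2afx from -0.0422 to 0.0332. Among differences of enrichment H1f0 ran from -0.0252 to 0.0895 (WT minus NF90+NF110 KO) and from -0.0991 to 0.0317 (NF110 KO minus NF90+NF110 KO), and H2afv from -0.0967 to 0.0471 (WT minus NF110 KO). In the difference of effects H2afx ran from -0.0003 to 0.4216 and H1f0 from -0.0319 to 0.0883.

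Over all genes, the calls ranged from 2553 to 3728 for NF45 KO (0 to 6035 without a library or experiment, given likewise in parentheses for the others) and from 426 to 1538 for the difference of effects (139 to 770). They ranged from 1 to 1016 for NF90+NF110 KO inputs (1 to 8), 0 to 719 for NF110 KO inputs (0) and 0 to 80 between the knockouts' inputs (0 to 8). For the IP comparisons they were 2433 to 5854 in NF90+NF110 KO (4316 to 4743), 1865 to 4911 in NF110 KO (3429 to 3795) and 3491 to 6691 in WT (5344 to 5679). For the differences of enrichment they ranged from 0 to 1188 for WT minus NF90+NF110 KO (13 to 1179), 1 to 1940 for NF110 KO minus NF90+NF110 KO (6 to 1440) and 0 to 2460 for WT minus NF110 KO (0 to 2416).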
